A study of Mus musculus with 203 samples.

Results

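The genes that encode the proteins of the cytosolic and the mitochondrial ribosome were followed in a mouse macrophage cell line with and without knockdown of Kdm1a and with and without interleukin 4. Members were taken by symbol. The cytosolic group holds every symbol made of Rpl or Rps, a number and at most a few further letters or digits, together with Rplp0, Rplp1, Rplp2 and Rpsa, and the mitochondrial group holds every symbol that starts with Mrpl or Mrps and a number. The rule found 164 of 25094 genes listed, 86 of them cytosolic and 78 mitochondrial. The study asked how the corepressor subunit GPS2 and the histone demethylase KDM1A govern the macrophage response to IL4, and deposited 203 samples. RNA-seq per library was available here for 16 libraries of RAW264.7 cells, a mouse macrophage line, in 4 groups of 4. Cells carried a lentiviral short hairpin against GFP as control (shGFP) or against Kdm1a (shKDM1A), and each was left untreated or given IL4 at 20 ng/ml for 6 h. All 4 groups therefore share the lentiviral vector and its drug selection, and hairpin and stable line cannot be told apart, since every library of a hairpin came from that hairpin's line. The study states that experiments had biological replicates but not how the 4 libraries of a group were grown, so the p-values measure the spread between these libraries, which may be technical.

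A cytosolic ribosome is built from a large and a small subunit, each a scaffold of ribosomal RNA covered by proteins that are made in nearly equal amounts, and the P-stalk proteins Rplp0, Rplp1 and Rplp2 form the arm that recruits translation factors. Mitochondria keep a separate ribosome that makes the few respiratory chain proteins coded in mitochondrial DNA. Its RNA is mitochondrial, whereas all of its proteins (MRPL in the large subunit, MRPS in the small) come from nuclear genes and are imported. Transcripts of cytosolic ribosomal proteins begin as a rule with a C followed by a run of pyrimidines, the 5′ terminal oligopyrimidine or TOP tract, through which mTOR signalling sets their translation.

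Short windows around annotated start sites are shown for a few members, so that the bases at which their transcripts begin can be compared. They run from 15 bases before the start to 14 after it, 5′ to 3′ on the strand of the gene, were taken from RefSeq promoters on GRCm38.p6, and carry in capitals the longest run of C and T that covers the start, base 16 of the window, or begins within 5 bases of it. Rps27 (chr3:90213634-90213663, minus strand) has the longest run of the genes shown and did not pass in any comparison. Rps25 (chr9:44407699-44407728, plus strand), Rpl4 (chr9:64173372-64173401, plus strand) and Rpl22 (chr4:152324421-152324450, plus strand, 1 of 2 windows) are cytosolic members whose level differed between the lines, and their runs are short or begin with T. In the Rps25 and Rpl4 windows longer runs of C and T stand further before the annotated start. Starts are annotated and not measured, the genes shown were picked, and a link between run and change was not tested. Mrpl52 (chr14:54426894-54426923, plus strand) and Mrpl18 (chr17:12916077-12916106, minus strand) are mitochondrial members that were lower in shKDM1A cells.
Rps27: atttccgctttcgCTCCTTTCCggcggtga
Rps25: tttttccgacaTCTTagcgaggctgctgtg
Rpl4: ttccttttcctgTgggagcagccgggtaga
Rpl22: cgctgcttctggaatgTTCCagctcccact
Mrpl52: tgccggggccacgcccaCTTCCggttccct
Mrpl18: cttgtagctttaCCCacagttaacatggct

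A window was found for 65 of 86 cytosolic members (77 windows) and 69 of 78 mitochondrial members (75 windows). A run of at least 5 pyrimidines at the start was present in 41.6% of cytosolic windows, 25.3% of mitochondrial windows and 23.6% of all 32851 RefSeq promoters. Motifs were searched on both strands from 250 bases before to 50 after the start. The letters CCGGAAGT, an ETS-type site, occurred in 15.6% of cytosolic and 16.0% of mitochondrial windows against 3.89% of all promoters. GGGCGG, the Sp1 box, occurred in 59.7%, 52.0% and 35.7%, and AAGATGGC, a YY1-type site, in 10.4%, 16.0% and 2.75%. GCGCATGC, a core of the NRF1 site, stood in 3.90% of cytosolic, 10.7% of mitochondrial and 2.71% of all windows. TATAAA was found in 10.4%, 6.67% and 13.6%, and the E-box CACGTG in 10.4%, 9.33% and 7.15%. These are matches of letters and not binding sites. In the IL4 comparison of shGFP cells described below, the median log2 change was -0.077 for 30 tested cytosolic members with the pyrimidine run and -0.081 for 33 without it, and 10 and 17 of these members were called. Among mitochondrial members in the comparison of the lines without IL4, the median was -0.10 for 19 with the run, 12 of them called, and -0.063 for 50 without it, 16 of them called. Over all tested genes 26.9% were called in the first of these comparisons and 38.2% in the second. The differences between members with and without the run were not tested.

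Values were the authors' moderated log2 expression values per library, and library totals ran from 17554721 to 27782568 tags. A difference of 1 is a doubling of the moderated value, which need not be a doubling of the reads, in particular at low values. Kdm1a itself stood between 11.07 and 11.23 in the shGFP libraries and between 10.23 and 10.36 in the shKDM1A libraries, a difference of -0.88 ± 0.03 without IL4 (SE, n = 4 per group, limma adjusted p = 5.6e-13). Of 10 macrophage markers 9 were expressed, Lyz2 among them at a mean of 16.87, while none of the fibroblast, T and B cell or epithelial markers passed the filter. The shKDM1A IL4 libraries did not form a single cluster: libraries 1 and 3 exceeded libraries 2 and 4 in 76 of 83 tested cytosolic members (median 0.075) and 71 of 78 mitochondrial members (median 0.073). The same libraries were higher in 189 of 210 well expressed non-members whose listed length is under 800 bases (median 0.072) and lower in 136 of 141 genes of at least 10000 bases (median -0.25). In bulk RNA, fewer expressing cells and less RNA per cell cannot be told apart.

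Levels of single members were compared per kilobase of listed length, as the log2 of the linear value per kilobase averaged over 16 libraries. The linear values come from the moderated logs, so low levels are approximate. Cytosolic members had a median level of 14.15 and mitochondrial members 9.89. Without division by length, the cytosolic class as a whole made up 5.80 to 6.32% of the summed linear values of a library, and the mitochondrial class 0.478 to 0.532%. Rpl41, the smallest protein of the large subunit, had the highest cytosolic level at 15.74, level with Rplp1 at this precision, and Rpl3l, the muscle paralog of the peptidyl transferase core protein Rpl3, had the lowest level tested at 2.82. Among mitochondrial members Mrpl12, which sits on the stalk of the large subunit, was highest at 12.00 and Mrpl1 lowest at 7.78. Rpl39l, Rpl10l and Rps4l, paralogs known from testis or as retrogenes, did not pass the filter, and Rpl10l and Rps4l were listed at 0 in all 16 libraries.

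Several ubiquitous cytosolic members were listed far below their class. Rpl21 had a level of 5.93 per kilobase, Rpl29 of 7.86, Rpl26 of 9.23 and Rps18 of 10.5. Processed copies of ribosomal protein genes are common in the mouse genome and can take reads from their parent where only unique reads are kept. A search of the coding sequences against mm9 found at least 1 further copy (95% identity over 90% of the length) for 71 of 80 tested cytosolic members and for 12 of 76 mitochondrial members, with up to 55 copies for Rpl21 and up to 4 for a mitochondrial gene. Rpl7a with 31 copies stood at 14.4. The median level was 14.5 for 9 cytosolic members without a copy, 14.2 for 53 with 1 to 9 and 14.0 for 18 with 10 or more, and 1, 7 and 5 members of these classes stood under 12. How multiply aligned reads were counted is not given in the sources used here, so levels of members with copies are uncertain. Rps27 and its retrogene Rps27rt carried values within 0.016 of each other in every library, and Rpl26 and Gm15772 within 0.14, so each of these pairs may be the same reads. Reads were counted without strand, and 12 of 86 cytosolic and 10 of 78 mitochondrial members overlap the span of another listed gene of at least 200 bases, so where exons are shared these values too are uncertain.

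**Figure D1:**
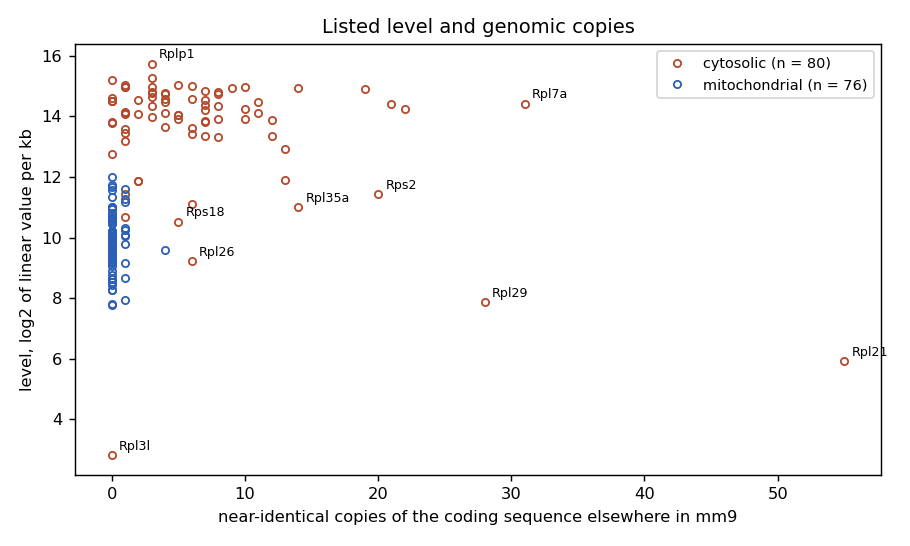
Mean level per kilobase (log2, y axis) of each searched member against the number of further copies of its coding sequence in mm9 (x axis), with cytosolic and mitochondrial members in separate colours. Most cytosolic members lie near 14, with Rpl21, Rpl29, Rpl26 and Rps18 between 5.93 and 10.5 and Rpl3l, with 0 copies, at 2.82, and mitochondrial members lie between 7.78 and 12.00.

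In shGFP cells many cytosolic ribosomal protein transcripts were lower with IL4 by a small amount, and most mitochondrial ones were not called. Of 83 tested cytosolic members 39 fell and 0 rose (limma adjusted p under 0.05), where 13.7% of all 12905 tested genes fell and 13.1% rose. The median log2 change was -0.088, 79 of 83 members lay below 0, and the median over all genes was -0.0005. The members that fell came from both subunits, 21 of 48 of the large and 17 of 32 of the small subunit, and 1 of 3 of the P-stalk. Of 78 mitochondrial members 11 fell and 1 rose, with a median of -0.027, so that the share that fell was close to that of all genes and the share that rose was below it. With the length correction described below, 6 fell and 6 rose, where 1782 of all tested genes fell and 2118 rose. The class medians per library were 13.88, 13.83, 13.83 and 13.92 without IL4 and 13.76, 13.77, 13.80 and 13.77 with IL4 for cytosolic members, so that every IL4 library was below every untreated library. For mitochondrial members they were 10.23, 10.19, 10.25 and 10.30 without and 10.20, 10.19, 10.23 and 10.20 with IL4, which overlap.

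**Figure D2:**
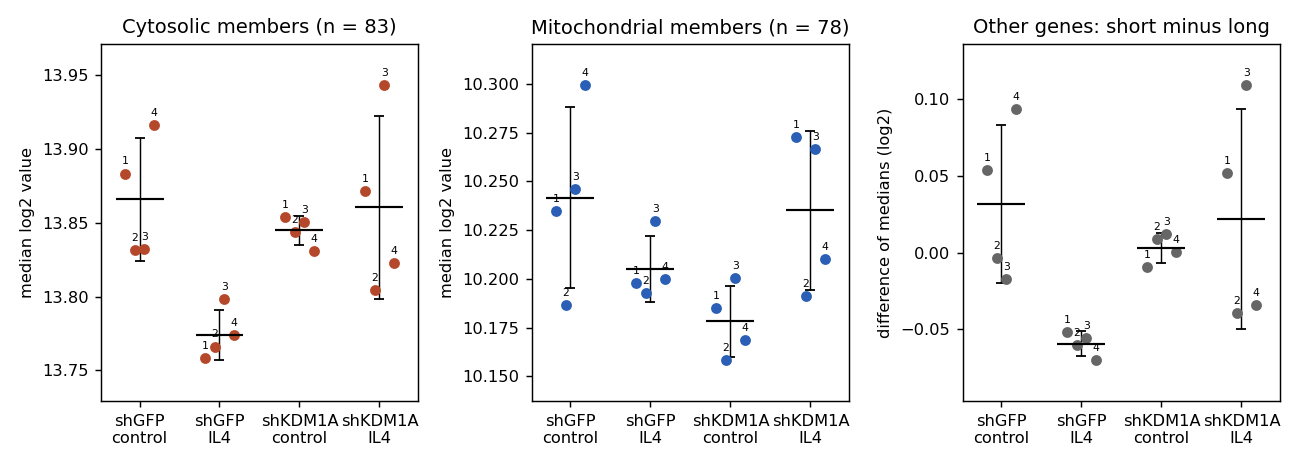
Median log2 value of the tested cytosolic members (left) and mitochondrial members (centre) and, for well expressed non-members, the median deviation of genes under 800 bases minus that of genes of at least 2500 bases (right), in each of the 16 numbered libraries, with the mean and SD of each group of 4. The shGFP IL4 libraries are the lowest cytosolic group (13.77 ± 0.017) and the shKDM1A control libraries the lowest mitochondrial group (10.18 ± 0.018), and the right panel spreads like the left in the shKDM1A IL4 libraries (SD 0.072 and 0.062).

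The largest cytosolic decrease in this comparison was that of Rpl26, a large subunit protein known also to bind p53 mRNA, with values of 8.39, 8.39, 8.51 and 8.54 before and 8.22, 8.29, 8.23 and 8.21 after IL4. The groups did not overlap, and the change was -0.22 ± 0.04 (SE, adjusted p = 0.00039, limma), with the caveat of its shared row given above. Rpl29 fell by 0.14 (adjusted p = 0.044) and Rpl23a, which binds nascent chains at the exit tunnel, by 0.13 (adjusted p = 0.0075). The laminin receptor Rpsa fell by 0.091 (adjusted p = 0.023) and Rplp0 by 0.089 (adjusted p = 0.017), whereas Rplp1 (-0.064, adjusted p = 0.13) and Rplp2 (-0.062, adjusted p = 0.27) did not pass. Rps14, a small subunit protein whose human gene was among the internal controls of the study's RT-qPCR, had values of 13.80, 13.76, 13.72 and 13.85 untreated and 13.69, 13.68, 13.70 and 13.69 with IL4. It fell by 0.091 (adjusted p = 0.046), without overlap between the groups. Among paralog pairs Rpl7 fell by 0.12 (adjusted p = 0.0077) while Rpl7l1 was at 0.020, Rpl3 fell by 0.088 (adjusted p = 0.013), Rpl10 by 0.075 (adjusted p = 0.037) and Rps4x by 0.10 (adjusted p = 0.026). Rpl39, Rpl36a, Rpl36al and Rps27 did not pass in this or any other comparison. In the mitochondrial class Mrps21 fell by 0.17 (adjusted p = 0.0026) and Mrpl19 by 0.16 (adjusted p = 0.00018), and Mrpl2, of the peptidyl transferase core, was the single member that rose, by 0.095 (adjusted p = 0.039).

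Transcript length moved with this result. The 210 well expressed non-members under 800 bases had a median change of -0.073, those of 800 to 2500 bases -0.022 and those of at least 2500 bases 0.014, and tested cytosolic members had a median length of 715 bases against 2797.5 for other genes. With each library corrected for its trend on length, a correction chosen after seeing the data, 11 cytosolic members fell and 2 rose, with a median of -0.026. Of the cytosolic members named above, Rpl26, Rpl7, Rpl3 and Rpsa were still called lower with this correction, and Rpl29, Rpl23a, Rplp0, Rps14, Rpl10 and Rps4x were not (for Rps14 -0.022, limma adjusted p = 0.44). Quantile normalization gave 15 cytosolic calls, all lower. Over all tested genes 1782 fell and 2118 rose with the length correction, and 1771 fell and 1672 rose with quantile normalization. Leaving out a single library gave 20 and 13 lower calls without shGFP control library 1 and 4, and 17, 24 and 20 without shGFP IL4 library 2, 3 and 4. Over all tested genes these runs gave 1542, 1534, 1539, 1526 and 1578 lower calls.

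Mrps6 stood apart from its class in the response to IL4 within each line. It encodes a small subunit protein of the mitochondrial ribosome at chr16:92058581-92112472 (mm9, plus strand). Its values were 11.42, 11.37, 11.42 and 11.41 in untreated and 10.65, 10.70, 10.71 and 10.77 in IL4-treated shGFP cells. In shKDM1A cells they were 11.51, 11.50, 11.50 and 11.52 untreated and 11.01, 10.99, 11.06 and 10.90 with IL4. All IL4 libraries lay below all untreated libraries of either line. Mrps6 fell by 0.70 ± 0.03 in shGFP cells (SE, adjusted p = 3.3e-11, limma) and by 0.52 ± 0.03 in shKDM1A cells (adjusted p = 1.5e-09), and the responses differed by 0.18 ± 0.04 (adjusted p = 0.022).

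Mrps6 shares its start region with Slc5a3, the sodium/myo-inositol cotransporter of osmotic adaptation, which starts just before it at chr16:92058567-92087718 on the same strand, and 696 exonic bases are common to both in GENCODE, out of 1590 for Mrps6 and 10913 for Slc5a3. The listed lengths in the deposited table are 775 bases for Mrps6 and 10909 for Slc5a3, so reads of Slc5a3 in the shared bases could make up a large part of the Mrps6 value. Slc5a3 fell by 0.85 with IL4 in shGFP cells (adjusted p = 4.3e-09) and by 0.90 in shKDM1A cells (adjusted p = 2.4e-09). Between lines the pair went opposite ways, with Mrps6 higher in shKDM1A cells by 0.10 without and 0.28 with IL4 (adjusted p = 0.014 and 1.5e-06) and Slc5a3 lower, at -0.18 and -0.23 (adjusted p = 0.016 and 0.0032). Which transcript the shared reads came from was not tested. The annotated starts are 14 bases apart, and they are in capitals, Slc5a3 and Mrps6 both on the plus strand, in the window chr16:92058321-92058350 of GRCm38.p6, shown because both transcripts begin within it.
Mrps6 and Slc5a3: tGctttcgccgtccgGgagctgaccggccg

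In shKDM1A cells IL4 raised part of the mitochondrial class and left the cytosolic class near 0. Of 78 mitochondrial members 17 rose and 2 fell, where 13.6% of all tested genes rose and 13.5% fell, and the median was 0.052. Of 83 cytosolic members 1 rose and 2 fell, with a median of 0.0004. Well expressed non-members had medians of 0.0036 under 800 bases, 0.035 at 800 to 2500 bases and -0.013 at 2500 bases or more. Mitochondrial members in the same length ranges had medians of 0.039, 0.059 and 0.048. Mrps28 had values of 9.52, 9.46, 9.49 and 9.43 untreated and 9.73, 9.60, 9.71 and 9.68 with IL4. The groups did not overlap and it rose by 0.21 ± 0.04 (adjusted p = 0.0012, limma). Mrpl52 rose by 0.19 (adjusted p = 0.00063) and Mrpl12 by 0.17 (adjusted p = 0.0015). Besides Mrps6, Mrpl19 fell, by 0.083 (adjusted p = 0.023). The cytosolic member that rose was Rpl7l1, a paralog of Rpl7 known from early ribosome assembly, by 0.15 (adjusted p = 0.00017), and those that fell were Rps29 by 0.15 (adjusted p = 0.032) and Rpl38, known for the translation of Hox mRNAs, by 0.14 (adjusted p = 0.0095). Rps29 had values of 13.61, 13.67, 13.72 and 13.70 untreated and 13.34, 13.55, 13.66 and 13.55 with IL4. Its call was lost in 8 of 26 alternative runs. Without shKDM1A IL4 library 3 alone, 1 cytosolic member rose and 7 fell. Without shKDM1A IL4 libraries 1 and 3, 10 mitochondrial members rose and 2 fell, and 1 cytosolic member rose and 10 fell. With 2 and 4 left out, 31 mitochondrial and 14 cytosolic members rose. Over all 12905 tested genes 1574 rose and 1542 fell without library 3 alone. The all-gene counts were 1417 and 1357 without 1 and 3, and 1860 and 2003 without 2 and 4.

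The test of the difference between the 2 responses called few members. Of 78 mitochondrial members 7 had a higher IL4 response in shKDM1A cells and 0 a lower one, and of 83 cytosolic members 1 had a higher and 0 a lower response, where 3.56% of all tested genes had a higher and 2.57% a lower response. Medians were 0.087 for mitochondrial and 0.076 for cytosolic members, with 75 of 78 and 79 of 83 above 0. Non-members under 800 bases had a median of 0.077, those of 800 to 2500 bases 0.062 and those of at least 2500 bases -0.028. The 7 were Mrps14 at 0.19 ± 0.04 (SE, adjusted p = 0.023, limma), Mrpl17 at 0.18 (adjusted p = 0.014), Mrps18a at 0.18 (adjusted p = 0.0085), Mrpl20 at 0.18 (adjusted p = 0.011), Mrps27 at 0.15 (adjusted p = 0.010), Mrpl12 at 0.18 (adjusted p = 0.043) and Mrps6, and the cytosolic call was Rpl7l1 at 0.13 (adjusted p = 0.034). Mrps14 had the largest difference, and its fall in shGFP cells was not itself called (-0.081, adjusted p = 0.074). Its values were 10.37, 10.32, 10.31 and 10.41 in shGFP control, 10.29, 10.30, 10.22 and 10.29 in shGFP IL4, 10.35, 10.30, 10.40 and 10.33 in shKDM1A control and 10.49, 10.39, 10.50 and 10.41 in shKDM1A IL4 libraries. Within shGFP cells all IL4 values were lower, and in shKDM1A cells the highest untreated value passed the lowest IL4 value. Without shKDM1A IL4 libraries 1 and 3 the counts were 1 mitochondrial and 0 cytosolic members. Without 2 and 4 they were 23 and 39. Over all tested genes 177 had a higher and 171 a lower response without libraries 1 and 3. Without 2 and 4 these all-gene counts were 1099 and 1183, against 459 and 332 in the main fit. With 1 library left out, the cytosolic count was 0 without shGFP control 2 or 4, shGFP IL4 1, 2 or 4, shKDM1A control 2, 3 or 4 or shKDM1A IL4 3, it was 2 without shKDM1A control 1, and it was 10 and 9 without shKDM1A IL4 2 and 4. The mitochondrial count was 12 without shKDM1A IL4 2. The length correction left 2 mitochondrial calls and 0 cytosolic calls, and with the replicate block the cytosolic count was 0.

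**Figure D3:**
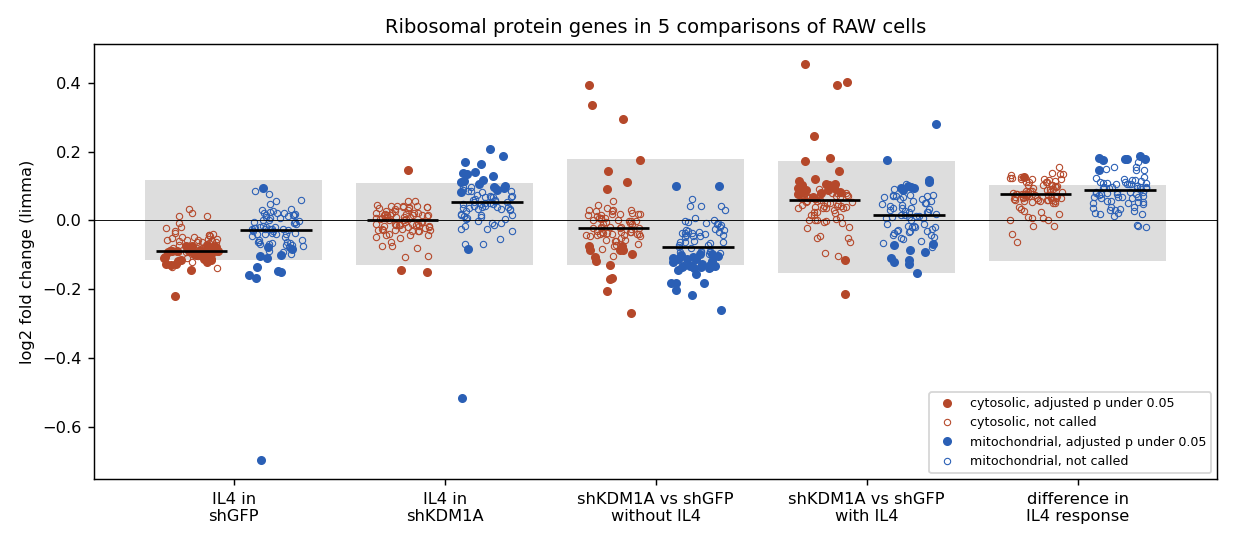
Log2 fold change of each tested member (points, filled where limma's adjusted p is under 0.05) in the 5 comparisons, cytosolic in red and mitochondrial in blue, with a black line at each class median and a grey band from the 10th to the 90th percentile of tested non-members. Cytosolic points lie mostly below 0 for IL4 in shGFP cells (79 of 83) and mitochondrial points for shKDM1A without IL4 (69 of 78), and the lowest points are Mrps6 with IL4 (-0.70 and -0.52).

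Without IL4, many mitochondrial ribosomal protein transcripts were lower in shKDM1A than in shGFP cells, and 46 of 78 were not called. Of 78 members 30 were lower and 2 higher, where 18.4% of all tested genes were lower and 19.7% higher. The median was -0.079 and 69 of 78 lay below 0. Both subunits took part, with 20 of 49 large and 10 of 29 small subunit members lower. Mrpl52 had values of 10.44, 10.46, 10.50 and 10.53 in shGFP and 10.25, 10.27, 10.24 and 10.14 in shKDM1A cells. The groups did not overlap, and the difference was -0.26 ± 0.03 (SE, adjusted p = 1.5e-05, limma). Mrpl12 had values of 12.04, 11.96, 12.00 and 12.09 against 11.79, 11.79, 11.80 and 11.84, a difference of -0.22 (adjusted p = 9.8e-05). Mrpl18, which is also known for carrying 5S rRNA into mitochondria, had values of 11.02, 10.96, 11.00 and 11.07 against 10.82, 10.84, 10.81 and 10.78. It differed by -0.20 (adjusted p = 3.7e-05), again with no overlap. The members that were higher were Mrps6 and Mrpl43 (0.10, adjusted p = 0.022), and Mrpl43 overlaps Twnk, the mitochondrial helicase gene, in the annotation. The count of lower members lay between 26 and 37 in every alternative run, the length correction included (27 lower, 3 higher). With that correction 2263 of all tested genes were lower and 2845 higher.

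With IL4 present, the mitochondrial class was divided, with 9 members higher and 9 lower in shKDM1A cells (20.9% and 19.8% of all tested genes) and a median of 0.015. The length correction gave 5 higher and 17 lower, leaving out shKDM1A IL4 libraries 1 and 3 gave 4 and 11, and leaving out 2 and 4 gave 19 and 5. Over all tested genes these runs gave 2681 higher and 2842 lower, 2220 and 1855, and 2687 and 2630. Mrpl52 (-0.15, adjusted p = 0.0022), Mrpl16 (-0.13, adjusted p = 0.0028) and Mrpl18 (-0.12, adjusted p = 0.0037) were lower by limma. Mrpl52 values with IL4 were 10.55, 10.55, 10.57 and 10.58 in shGFP and 10.48, 10.33, 10.46 and 10.37 in shKDM1A cells, still without overlap. Besides Mrps6, Mrps14 (0.18, adjusted p = 0.00032) and Mrpl14 (0.12, adjusted p = 0.030) were higher. This comparison and the comparison without IL4 have no library in common.

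Cytosolic members were mixed without IL4, with 7 of 83 higher and 13 lower in shKDM1A cells, against 19.7% and 18.4% of all tested genes, and a median of -0.023. With shGFP control library 4 left out 7 were higher and 5 lower, and with shKDM1A control library 2 or 3 left out 7 and 6. The length correction gave 11 higher and 7 lower and quantile normalization 6 and 29, so the balance rests on these libraries and on the scaling. Over all tested genes the length correction gave 2845 higher and 2263 lower, and quantile normalization 2225 and 2929. With IL4 22 were higher and 2 lower, against 20.9% and 19.8% of all tested genes (11 of 48 large subunit members, 9 of 32 small and 2 of 3 P-stalk higher), with a median of 0.061. This higher count uses the same shGFP IL4 libraries that were lowest in the IL4 comparison above. Non-members under 800 bases had a median of 0.042 and those of at least 2500 bases -0.029 in this comparison. The count depended on the scaling. Quantile normalization gave 5 higher and 13 lower, so that the direction turned, the length correction gave 12 higher and 8 lower, leaving out shKDM1A IL4 libraries 1 and 3 gave 9 higher and 5 lower, leaving out 2 and 4 gave 43 higher and 2 lower, and leaving out 2 alone gave 35 higher and 2 lower. Over all tested genes the first 2 of these runs gave 2384 higher and 2917 lower, and 2681 and 2842. The runs with libraries left out gave 2220 and 1855, 2687 and 2630, and 2660 and 2554, in the same order.

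The 4 cytosolic members with the largest rises in shKDM1A cells lie on chromosome 9. Rpl4, a large subunit protein that lines the exit tunnel, had values of 15.34, 15.31, 15.30 and 15.34 in shGFP and 15.73, 15.69, 15.73 and 15.72 in shKDM1A cells without IL4. With IL4 they were 15.28, 15.26, 15.26 and 15.26 against 15.73, 15.66, 15.78 and 15.71. The lines were apart by far more than the spread within them, at 0.40 ± 0.02 without (SE, adjusted p = 5.3e-10, limma) and 0.46 ± 0.02 with IL4 (adjusted p = 9.4e-11). Rps25, a small subunit protein known for initiation at viral internal ribosome entry sites, had values of 13.88, 13.84, 13.84 and 13.91 against 14.20, 14.19, 14.20 and 14.22 without IL4. The difference was 0.33 (adjusted p = 4.6e-08), and 0.40 with IL4 (adjusted p = 4.6e-09), in counts that include any reads of the overlapping antisense gene Ccdc84. Rplp1 of the P-stalk had values of 14.50, 14.44, 14.42 and 14.55 against 14.78, 14.76, 14.79 and 14.76. It differed by 0.29 (adjusted p = 6.8e-07) and by 0.39 with IL4 (adjusted p = 2.0e-08). Rps27l, the p53-responsive paralog of Rps27, had values of 11.95, 11.86, 11.89 and 11.91 against 12.00, 12.09, 12.13 and 12.10 and differed by 0.18 and 0.25 (adjusted p = 0.0011 and 4.8e-05). In none of these comparisons did the lines overlap.

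These genes lie in a stretch of chromosome 9 from 30 to 80 Mb (mm9) in which most tested genes were higher in the shKDM1A line. The stretch was found after seeing the data, as the adjoining 10-Mb bins of at least 20 genes whose median difference was at least 0.1 both without and with IL4. In it 304 tested non-members had a median of 0.24 without IL4, with 271 above 0 and 233 higher against 10 lower, and a median of 0.23 with IL4. The 196 other bins had medians between -0.061 and 0.051 without and between -0.065 and 0.045 with IL4. The 384 remaining tested non-members of chromosome 9 had a median of -0.0049 without IL4. Members of chromosome 9 outside the stretch were not called higher: Rpl29 was at -0.10 (adjusted p = 0.12), Rpsa at -0.056 (adjusted p = 0.13), Mrpl4 at -0.0081 and Mrps22 at -0.043, and Rpl14 and Mrpl3 were lower, at -0.085 and -0.11 (limma). With IL4 in shGFP cells, the 304 non-members inside the stretch had a median log2 change of -0.0025. Of 110 tested non-member genes of the translation lists described below, 3 lie in the stretch, and all 3 were higher in the shKDM1A line, namely the elongation factor Eef1a1 (0.35 without and 0.39 with IL4), the mitochondrial formyltransferase Mtfmt (0.23 and 0.31) and the mitochondrial pseudouridine synthase Rpusd4 (0.32 and 0.39). With the 4 members left out, 3 cytosolic members were higher and 13 lower without IL4, and 18 higher and 2 lower with IL4. The copy number of this region was not tested, and the effect of the hairpin and the history of the line cannot be told apart here.

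**Figure D4:**
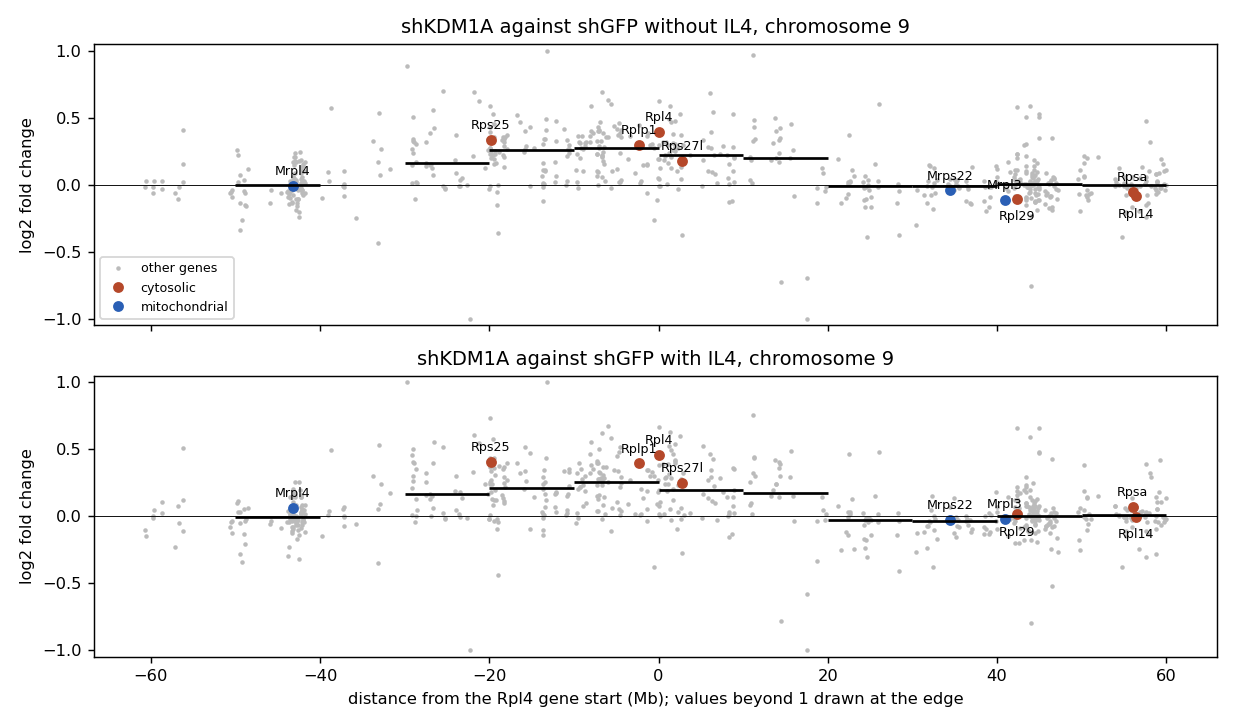
Log2 fold change between shKDM1A and shGFP cells without IL4 (top) and with IL4 (bottom) of genes on chromosome 9, against distance from the Rpl4 gene start (x axis, Mb), with non-members in grey, cytosolic members in red, mitochondrial members in blue and black lines for medians of 10-Mb bins; values beyond 1 are drawn at the edge. Rps25, Rplp1, Rpl4 and Rps27l lie with the raised non-members (median 0.24 without and 0.23 with IL4), and the members outside the stretch lie between -0.11 and -0.0081 without IL4.

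Away from chromosome 9, the paralogs Rpl22 and Rpl22l1 differed in opposite directions between the lines. Rpl22, an RNA-binding large subunit protein known to repress its paralog, had values of 12.81, 12.80, 12.83 and 12.83 in shGFP and 12.54, 12.51, 12.58 and 12.57 in shKDM1A cells without IL4. With IL4 they were 12.73, 12.73, 12.79 and 12.74 against 12.55, 12.47, 12.59 and 12.53. Every shKDM1A value was lower, by 0.27 ± 0.03 without (SE, adjusted p = 2.4e-07, limma) and 0.21 ± 0.03 with IL4 (adjusted p = 3.8e-06). Rpl22l1 had values of 10.96, 10.91, 10.97 and 10.96 against 11.06, 11.05, 11.10 and 11.04 without IL4. With IL4 they were 10.93, 10.88, 10.91 and 11.01 against 11.08, 11.06, 11.21 and 11.08. Every shKDM1A value was higher, by 0.11 (adjusted p = 0.013) and 0.17 (adjusted p = 0.00057). These 4 calls held in every alternative run.

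**Figure D5:**
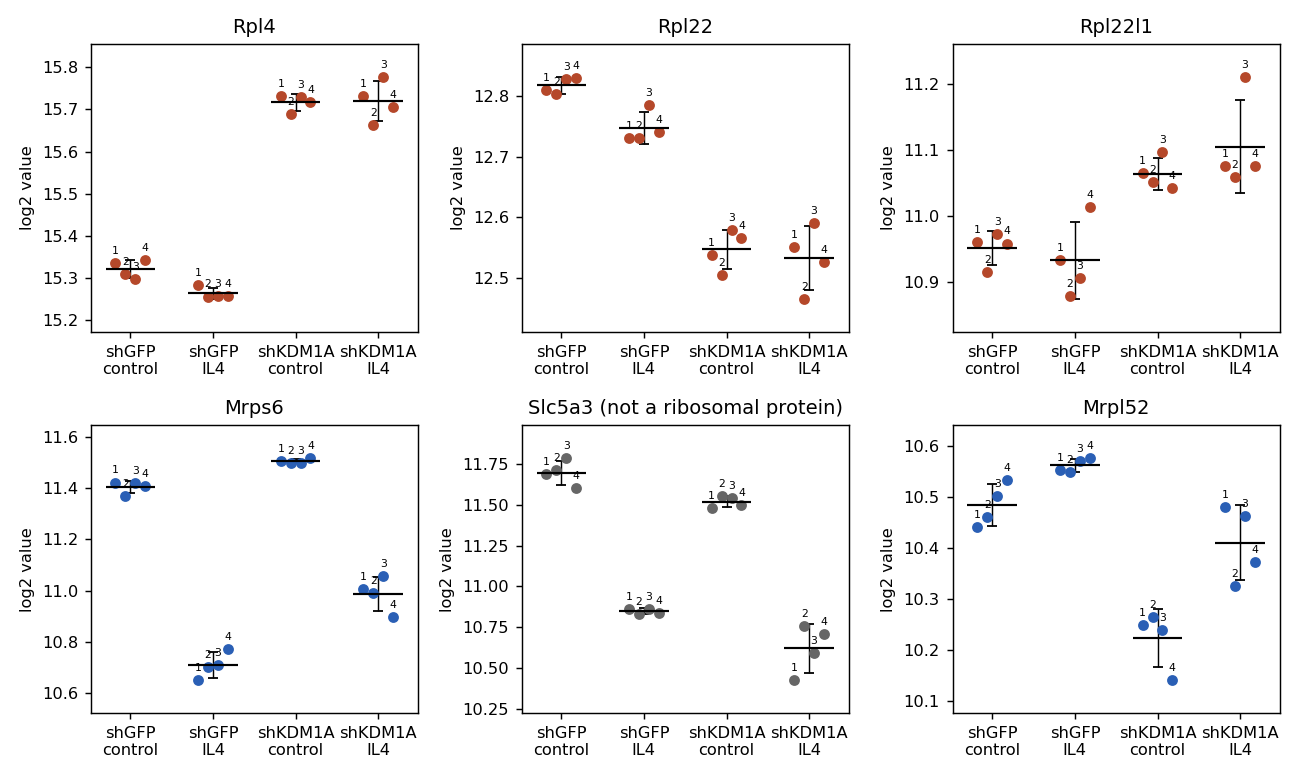
Log2 value of Rpl4, Rpl22, Rpl22l1, Mrps6, Slc5a3 (not a ribosomal protein gene) and Mrpl52 in the 4 groups, each point a library with its number, with the group mean and SD; the y axes do not start at 0. Mrps6 and Slc5a3 are lower with IL4 in both lines, Rpl4 is higher and Rpl22 lower in both shKDM1A groups, and Mrpl52 is lowest in the shKDM1A control libraries (10.14 to 10.27).

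Rplp0, the P-stalk base and a common reference gene, was higher in shKDM1A cells by 0.091 without and 0.18 with IL4 (adjusted p = 0.010 and 3.2e-05, limma), while Rplp2 was at 0.013 and 0.091 (adjusted p = 0.83 and 0.068). Rps14 was at -0.022 without IL4 (adjusted p = 0.65) and higher by 0.11 with IL4 (adjusted p = 0.0097). Its values with IL4 were 13.69, 13.68, 13.70 and 13.69 in shGFP and 13.85, 13.75, 13.88 and 13.74 in shKDM1A cells, which do not overlap. Rpl7l1 was lower by 0.17 without IL4 (adjusted p = 2.1e-05) and Rpl7 by 0.085 (adjusted p = 0.036). Rps21 was lower by 0.21 ± 0.06 without IL4 (adjusted p = 0.017). The calls of Rplp0 in both comparisons, of Rps14 with IL4 and of Rpl7 and Rps21 without IL4 were each lost in some alternative run. Rpl3l was lower by 0.099 and 0.11 (adjusted p = 0.0012 and 0.00031) at a very low level, whereas Rpl3 was at -0.061 and 0.016 (adjusted p = 0.059 and 0.64). The SD of Rpl3l was 0.044 in shGFP control, 0.0050 in shGFP IL4, 0.0095 in shKDM1A control and 0.022 in shKDM1A IL4 libraries. At this level the moderation may have narrowed the spread, so the p-values of Rpl3l are uncertain. Rpl10 was higher by 0.076 with IL4 (adjusted p = 0.024), a direction that quantile normalization turned (-0.021), and Rps27 spread so widely in the shKDM1A IL4 libraries (12.93, 13.23, 13.37 and 13.26) that its difference of -0.023 ± 0.07 says little.

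Within groups, cytosolic members varied together over the libraries. The mean correlation of pairs of cytosolic members, taken on deviations from the group means over 16 libraries that share depth and scaling, was 0.51, against 0.20 for mitochondrial pairs, 0.30 between the classes and 0.0002 over all tested genes. The difference between well expressed non-members under 800 and over 2500 bases varied over the same libraries, from -0.070 to 0.11.

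Other genes of the translation pathway were counted from lists, to be read against the shares of all tested genes that rose and fell, 13.1% and 13.7% with IL4 in shGFP cells, 13.6% and 13.5% in shKDM1A cells, 19.7% and 18.4% (higher and lower) between lines without IL4 and 20.9% and 19.8% with IL4. The ribosomal proteins that carry other symbols followed the named classes in part: of 3 cytosolic ones, 1 fell with IL4 in shGFP cells (Rack1, the scaffold on the small subunit, by 0.11, adjusted p = 0.0073) and 2 were higher in shKDM1A cells with IL4 (Rack1 by 0.15 and Fau by 0.096, limma). Of 5 mitochondrial ones, 2 were lower in shKDM1A cells without IL4, Ptcd3 at -0.12 and Gadd45gip1 at -0.11. Of 44 cytosolic initiation, elongation and release factors, 8 rose and 7 fell with IL4 in shGFP cells and 19 rose and 3 fell in shKDM1A cells, and 4 were higher and 14 lower between lines without IL4, 15 and 5 with IL4. Eif1, the start codon selection factor, fell by 0.22 with IL4 in shGFP cells (adjusted p = 3.5e-05), and Eif1ax was lower by 0.19 in shKDM1A cells without IL4 (adjusted p = 4.2e-06). Of 15 mitochondrial translation factors 1 rose and 0 fell with IL4 in shGFP cells and 3 rose and 0 fell in shKDM1A cells, and of 24 assembly factors of the mitochondrial ribosome 4 rose and 1 fell and 7 rose and 0 fell. Without IL4, 3 assembly factors were higher and 6 lower in shKDM1A cells, Gtpbp10 among the higher at 0.46 (adjusted p = 1.7e-07). Of 19 regulators of ribosomal protein synthesis, 2 rose and 1 fell with IL4 in shGFP cells and 2 rose and 3 fell in shKDM1A cells, and 2 were higher and 6 lower between lines without IL4, 4 and 7 with IL4. Myc rose with IL4 by 0.54 in shGFP and 0.68 in shKDM1A cells (adjusted p = 1.5e-07 and 9.8e-09). The translation repressor Eif4ebp1 was higher in shKDM1A cells without IL4 by 0.31 (adjusted p = 1.5e-07), and its IL4 response differed between the lines by -0.28 (adjusted p = 0.00052). Among IL4-treated cells Ppargc1b was lower in shKDM1A than in shGFP cells by 0.31 (adjusted p = 0.00050).

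In bone marrow-derived macrophages of wild-type and Gps2 knockout mice, the table of the 16 libraries listed 163 members, 85 cytosolic and 78 mitochondrial, among 16478 rows. It carries the authors' comparisons and no value per library, so no level or change is given for these cells.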

How the data were processed

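RNA-seq libraries were prepared and sequenced by service facilities, with an NEBNext Ultra II kit per the labels. Per the labels, HISAT2 and HOMER were used on mm9, and the file header shows that reads in exons were counted without regard to strand. The deposited RAW264.7 table holds log2 values per library whose moderating transformation is not named. Its 9 columns of the authors' comparisons, and the bone marrow table, which holds only such columns, were not used. Because the deposited values were logs, limma 3.58.1 (R 4.3.3) was run in 1 model of 4 groups over the 12905 genes that reached 1 in 4 or more libraries, two-sided, with Benjamini-Hochberg adjustment over all of them and a threshold of 0.05. Well expressed means a mean of at least 9. Copies were searched with blastn 2.17.0. Members and lists were chosen with earlier results of these data known. Members were named as the 3 largest calls per class, direction and comparison, the P-stalk genes, Rpsa, Rps14, preset paralog pairs and the extremes of level. List genes were named from the 2 largest calls per list and comparison, and not all of these are printed. Rpl21, Rps18, Rpl7a, Mrpl20, Mrps27 and the chromosome 9 members outside this rule were named after their values were seen. Counts over the list of members are descriptions. Alternatives were other filters, scalings and variance priors, a replicate block, leaving out each library and, chosen after seeing the data, leaving out pairs of shKDM1A IL4 libraries, the length correction and the chromosome 9 members.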

Additional observations from a re-analysis of the deposited data

Results flagged for a closer look

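Of 176 groups of 4 examined among the named members, 9 held a library far from the other 3 by Dixon's test, and chance gives about 1 in 20. In shKDM1A IL4 library 3, Rpl22l1 was at 11.21, Rpl41 at 14.69, Rplp2 at 13.96 and Rps27l at 12.19, each above the other libraries of its group. In shGFP IL4 libraries, Rpl22 was high in library 3 (12.79), Rpl4 in library 1 (15.28) and Rpl7 in library 4 (14.45). In shKDM1A control libraries, Rpl29 was low in library 3 (7.94) and Mrpl1 in library 2 (9.53).

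The response to IL4 differed between the lines, by the limma test of the difference, for Mrpl12 (0.18), Mrpl17 (0.18), Mrpl20 (0.18), Mrps14 (0.19), Mrps18a (0.18), Mrps27 (0.15), Mrps6 (0.18) and Rpl7l1 (0.13).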

How the results depend on the processing

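Among recomputed counts 211 stayed within 1.5 times the main count with the same direction, 41 moved and 8 reversed. Calls over all tested genes moved too. For the difference in response they were 1099 higher and 1183 lower without shKDM1A IL4 libraries 2 and 4, against 459 and 332 in the main fit. For IL4 in shGFP cells, quantile normalization called 15 cytosolic members and the length correction 13, against 39. For IL4 in shKDM1A cells, the 3 cytosolic calls became 3 with the balance turned (2 higher, 1 lower) with no filter, 7 (4 higher) under quantile normalization, 14 (all higher) without shKDM1A IL4 libraries 2 and 4, 11 without 1 and 3 and 8 under the length correction, and the 19 mitochondrial calls became 12 without 1 and 3 and 33 without 2 and 4. Between the lines without IL4, cytosolic calls were 35 under quantile normalization and 18, with more higher than lower, under the length correction, against 20. With IL4 they were 18 and mostly lower under quantile normalization, 38 with a trended, robust prior, 14 without libraries 1 and 3 and 45 without 2 and 4, against 24. For the difference in response, the 1 cytosolic call became 2 with no filter or with median centring, 0 with the stricter filter of 5, without 1 and 3 or under the length correction, 15 with the trended prior and 39 without 2 and 4, and the 7 mitochondrial calls became 1 without 1 and 3, 23 without 2 and 4 and 2 under the length correction.

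Leaving out 1 library at a time gave, for cytosolic members, 13 to 47 calls for IL4 in shGFP cells, 2 to 8 in shKDM1A cells, 12 to 24 between lines without IL4, 17 to 37 with IL4 and 0 to 10 for the difference. For mitochondrial members the ranges were 8 to 13, 14 to 24, 28 to 35, 12 to 22 and 6 to 12. Without shGFP control replicate 4 the cytosolic calls between lines without IL4 were 12, and without shKDM1A control replicate 2 or 3 they were 13, with more higher than lower. Of 59 called values of named members 33 held in every alternative and 26 were lost in some. Those lost were, for IL4 in shGFP cells, Rpl29, Rpl22, Rps14, Rpl10, Rps4x, Rplp0, Rpsa, Rpl23a, Rpl3, Rpl7 and Mrpl2, the first 3 in 16, 16 and 15 of 26 alternatives. For IL4 in shKDM1A cells they were Rps29, Rpl38 and Mrpl19, between lines without IL4 Rpl7, Rplp0, Rps21 and Mrpl43, with IL4 Rplp0, Rps14, Rpl10 and Mrpl14, and for the difference Rpl7l1 (14 of 25), Mrps14, Mrps18a and Mrpl17. Under quantile normalization the difference with IL4 turned to -0.021 for Rpl10, -0.075 for Rpl3 and -0.23 for Rpsa.

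The replicate numbers are shared between groups, but same-numbered libraries did not deviate together (r from -0.34 to 0.27), so they were not treated as pairs. With the replicate block the cytosolic calls for the difference in response were 0. A pseudocount and the count models were not run because the values are logs and not counts.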
